A study of Arabidopsis thaliana with 12 samples.

Results

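The 10 genes described here encode cyclic nucleotide gated channels of *Arabidopsis thaliana*: *DND1* (also *CNGC2*, AT5G15410), *DND2* (also *CNGC4*, AT5G54250), *CNGC1* (AT5G53130), *CNGC3* (AT2G46430), *CNGC6* (AT2G23980), *CNGC10* (AT1G01340), *CNGC11* (AT2G46440), *CNGC12* (AT2G46450), *CNGC19* (AT3G17690) and *CNGC20* (AT3G17700). They were taken by locus code from a table of 18884 genes, and all 10 were present and tested. Polyadenylated RNA was sequenced from leaves of untreated 5-week-old plants, which grew on soil with 10 h of light a day at 22 °C and 60% humidity. The 12 libraries fell into 4 genotypes with 3 libraries each. The TPR1-GFP sid2-1 line, here the sid2-1 double line, carried the transgene pTPR1:TPR1-GFP together with the sid2-1 allele of *ICS1*, an enzyme gene of salicylic acid synthesis. The TPR1-GFP eds1-2 line, here the eds1-2 double line, carried the same transgene with the eds1-2 allele of *EDS1*, a hub gene of immune receptor signalling. The TPR1-GFP line carried pTPR1:TPR1-GFP alone, a fluorescently tagged copy of the transcriptional corepressor TPR1 driven by the *TPR1* promoter. Col-0, the wild type, carried neither the transgene nor a mutant allele. No line with a mutation alone is analysed here, so each double line was compared with TPR1-GFP, and the labels do not say how many independent transgenic lines there were.

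Plant cyclic nucleotide gated channels sit in cell membranes, are assembled from several subunits, and let calcium and other cations pass. Calmodulin binds to their intracellular end, where a cyclic nucleotide binding domain also lies. In leaves they take part in the calcium entry that follows the perception of microbes, wounding and heat. Loss of *DND1* or of *DND2* gives dwarf plants with raised salicylic acid that resist pathogens without the usual local cell death ("defence, no death"), and both genes have been reported as targets that TPR1 represses. The comparison of the TPR1-GFP line with Col-0 addresses which genes changed with the transgene. The double lines address how such levels differ when *ICS1* or *EDS1* is mutated as well, in lines whose *TPR1* level also differed from TPR1-GFP.

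Library totals ran from 19628974 to 32018583 counts. Levels are CPM, counts relative to the library's size, with sizes scaled by the trimmed mean of M values (TMM). A gene was called at an adjusted p under 0.05 in edgeR's quasi-likelihood test, with the Benjamini-Hochberg adjustment made across the 18877 genes tested. The design text names independent experiments, but neither it nor the labels tie replicate numbers to experiments or plants. A p-value therefore speaks only of the spread among libraries, whose sources cannot be told apart here. *TPR1*, native gene and transgene together, stood at 776, 1305 and 1222 CPM in the sid2-1 double line, 1048, 1327 and 990.2 CPM in the eds1-2 double line, 1539, 1748 and 1617 CPM in TPR1-GFP libraries and 74.1, 73.5 and 68.3 CPM in Col-0. *EDS1A* had 13.5, 15.99 and 15.7 CPM in the eds1-2 double line and 129.8, 148 and 173 CPM in TPR1-GFP, and *ICS1* had 132, 136 and 157 CPM in the sid2-1 double line and 208, 266 and 368 CPM in TPR1-GFP. The sid2-1 allele is a point mutation, so the *ICS1* level does not check that label. Every *TPR1* value of both double lines lay under those of TPR1-GFP. In the eds1-2 double line against TPR1-GFP *TPR1* was called lower, with a log2 change of −0.54. A difference from TPR1-GFP can therefore go with the mutant allele or with the lower *TPR1* level, and these cannot be told apart here. The 4 leaf mesophyll markers (*RBCS1A*, *LHCB3*, *PSBO1*, *CA1*) summed to 23502 to 25497 CPM in the sid2-1 double line, 32437 to 38069.7 in the eds1-2 double line, 17642 to 21374 in TPR1-GFP and 36876 to 44788 in Col-0. All 4 were called lower in TPR1-GFP than in Col-0. Vascular markers summed to 236 to 254 CPM in the sid2-1 double line, 361 to 407 in the eds1-2 double line, 224 to 245 in TPR1-GFP and 212 to 297 in Col-0. Guard cell markers summed to 82.3 to 89.6 CPM in the sid2-1 double line, 69.7 to 111 in the eds1-2 double line, 67.0 to 72.5 in TPR1-GFP and 86.4 to 107 in Col-0. The flower marker *AG* reached 2.26 CPM at most, in the eds1-2 double line. The flower markers *AP1* and *AP3* and the root hair markers *RHD6* and *COBL9* were absent from the 18884 genes. In bulk leaf RNA, fewer cells of a type and less RNA per cell cannot be told apart, and the part of cell make-up in the channel results was not tested.

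In TPR1-GFP against Col-0, 8 of the 10 channel genes were called higher and 0 lower. Over all genes tested, 53.9% were called in this comparison and 27.5% were called higher. *CNGC19* had the largest log2 change at 4.36 (SE 0.41, adjusted p = 1.55e-05), and *CNGC3* and *CNGC12* followed. *DND1* and *CNGC6* were not called. The median log2 change of the 10 genes was 0.84, against 0.00809 over all genes tested. The 3 libraries of TPR1-GFP lay above all 3 of Col-0 for 8 of the 10 genes, a pattern that 31.1% of all genes tested had.

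In the eds1-2 double line against TPR1-GFP, 8 of the 10 genes were called lower and 0 higher, where 52.9% of all genes were called and 27.7% were called lower. *DND1* and *CNGC11* were the genes without a call. For all 8, each eds1-2 library lay under all 3 of TPR1-GFP, as it did for 32.2% of all genes. The median log2 change of the 10 genes was −0.74, against −0.0324 over all genes. In the sid2-1 double line against TPR1-GFP, *CNGC11* and *CNGC12* were called lower and 0 genes higher, where 16.8% of all genes were called and 7.14% were called lower. The median log2 change of the 10 genes was −0.27, against 0.00146 over all genes. Both calls were lost without any 1 of 5 libraries (TPR1-GFP replicates 2 and 3 and all 3 of the sid2-1 double line), with adjusted p-values of 0.0655 to 0.0874 for *CNGC11* and 0.0626 to 0.107 for *CNGC12*. Calls over all genes fell there too, from 3179 to between 1172 and 2027. With 1 library left out, the log2 change was −0.99 to −0.84 for *CNGC11* and −0.61 to −0.49 for *CNGC12*. These comparisons share the TPR1-GFP libraries, so their values are given side by side and not as separate support.

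**Figure D1:**
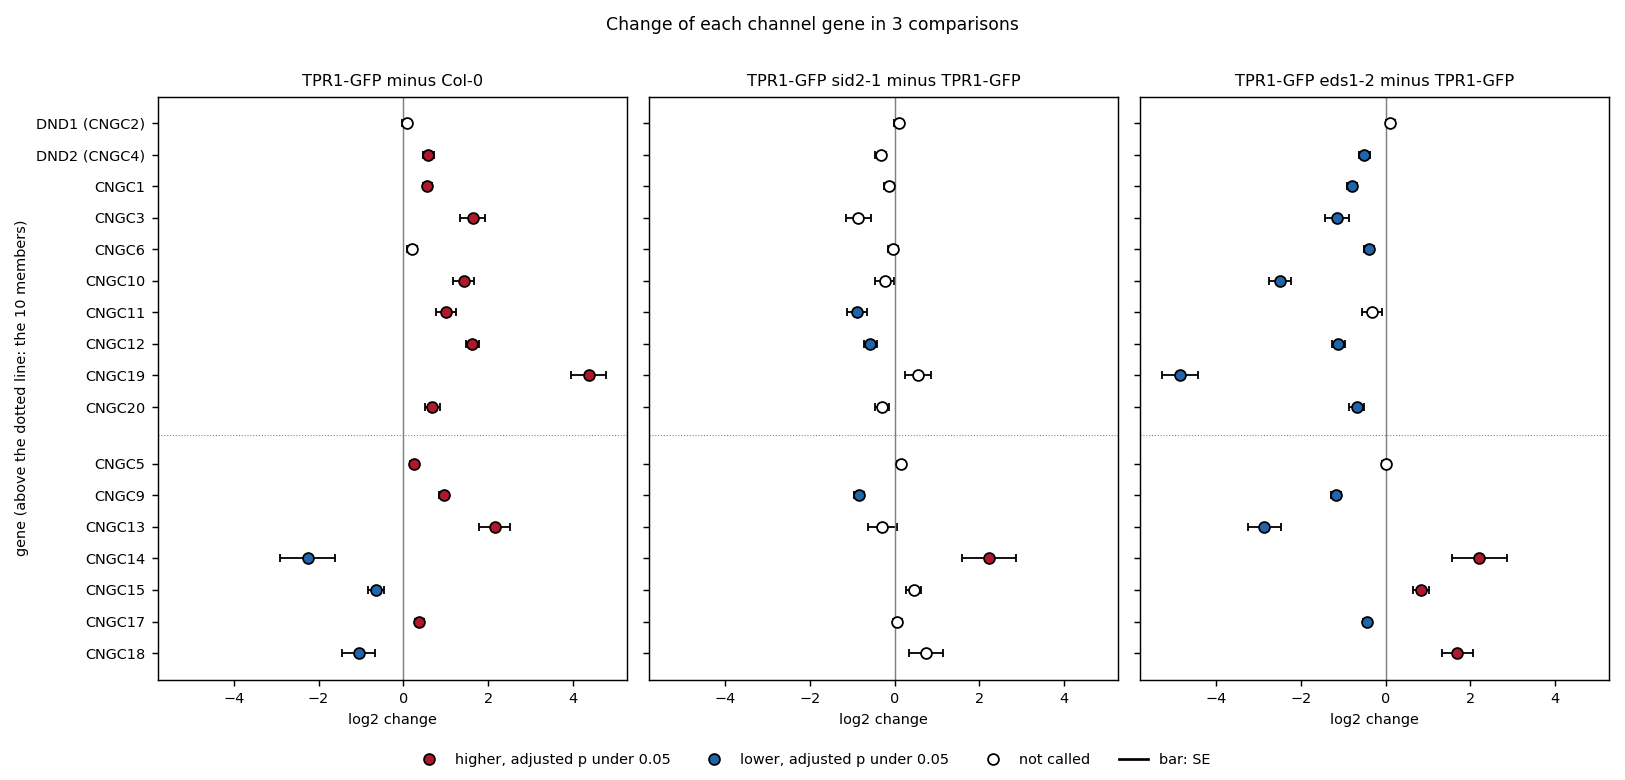
Log2 change of each channel gene with its SE (horizontal axis) in TPR1-GFP minus Col-0, the sid2-1 double line minus TPR1-GFP and the eds1-2 double line minus TPR1-GFP, with the 10 members above the dotted line and 7 other family genes under it. Filled points were called: 8 members, all right of 0, in TPR1-GFP minus Col-0, 2, left of 0, in the sid2-1 double line minus TPR1-GFP, and 8, left of 0, in the eds1-2 double line minus TPR1-GFP.

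*DND1*, a subunit gene of a plasma membrane calcium channel, lies on the minus strand of chromosome 5 at positions 5003226 to 5006882 of TAIR10.1. It had 116, 137 and 116 CPM in the sid2-1 double line and 117, 139.5 and 113 CPM in the eds1-2 double line. It had 114, 116 and 113 CPM in TPR1-GFP libraries and 111, 116 and 99.04 CPM in Col-0. The 4 genotypes overlapped, and the highest library of each double line was replicate 2. The log2 change was 0.07 (SE 0.11, adjusted p = 0.588) in TPR1-GFP against Col-0, 0.10 (SE 0.11, adjusted p = 0.524) in the sid2-1 double line against TPR1-GFP and 0.11 (SE 0.11, adjusted p = 0.418) in the eds1-2 double line against TPR1-GFP. None of the 6 comparisons called *DND1*. Without scaling beyond the library total its change in TPR1-GFP against Col-0 was 0.33 (adjusted p = 0.0226), but there the median of all genes stood at 0.26, and with upper-quartile scaling the change was −0.0041. Its exons overlap those of AT5G15400 by 28 bases on the same strand.

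*DND2*, whose product forms calcium channels with that of *DND1*, lies on the minus strand of the same chromosome at positions 22025035 to 22030099. It had 48.8, 44.1 and 51.2 CPM in the sid2-1 double line and 36.2, 50.4 and 40.6 CPM in the eds1-2 double line. It had 52.6, 65.5 and 61.9 CPM in TPR1-GFP libraries and 44.9, 38.5 and 36.9 CPM in Col-0. Every TPR1-GFP library lay above all 9 others. *DND2* rose in TPR1-GFP against Col-0, with a log2 change of 0.58 (SE 0.13, adjusted p = 0.00298), and fell in the eds1-2 double line against TPR1-GFP, with a log2 change of −0.50 (SE 0.13, adjusted p = 0.00723). Its change in the sid2-1 double line against TPR1-GFP was −0.32 (SE 0.13, adjusted p = 0.11) and was not called, although the groups did not overlap. Groups did not overlap for 39.9% of all genes there.

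The ratio of *DND2* to *DND1* within each library, both as CPM per kb of exon, needs no scaling between libraries. It was 0.394, 0.302 and 0.414 in the sid2-1 double line, 0.2898, 0.338 and 0.337 in the eds1-2 double line, 0.431, 0.528 and 0.514 in TPR1-GFP and 0.377, 0.3103 and 0.349 in Col-0. The 3 TPR1-GFP ratios lay above all 9 others, and the remaining genotypes overlapped. The 2 proteins share 48.2% of aligned residues, and no stretch of 50 exon bases of either gene occurs elsewhere in the genome.

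The bases just upstream of both genes are printed because both are reported TPR1 targets and only *DND2* was called. They are 250 bases before the RefSeq gene start in TAIR10.1, *DND1* from chr5:5006883-5007132 and *DND2* from chr5:22030100-22030349, both on the minus strand. Capitals mark TTGAC or its reverse complement GTCAA, the core of the W-box that WRKY factors bind.
DND1: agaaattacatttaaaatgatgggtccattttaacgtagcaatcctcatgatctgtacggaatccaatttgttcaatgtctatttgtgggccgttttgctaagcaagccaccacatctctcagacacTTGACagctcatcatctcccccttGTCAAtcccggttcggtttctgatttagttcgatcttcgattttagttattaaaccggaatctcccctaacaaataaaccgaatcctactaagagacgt
DND2: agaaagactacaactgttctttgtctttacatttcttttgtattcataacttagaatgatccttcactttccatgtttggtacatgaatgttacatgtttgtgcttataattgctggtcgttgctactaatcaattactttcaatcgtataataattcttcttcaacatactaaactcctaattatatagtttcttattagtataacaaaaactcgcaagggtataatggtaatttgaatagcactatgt
The *DND1* window holds 2 matches, at 123 and 99 bases before the start, and the *DND2* window holds 0.

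**Figure D2:**
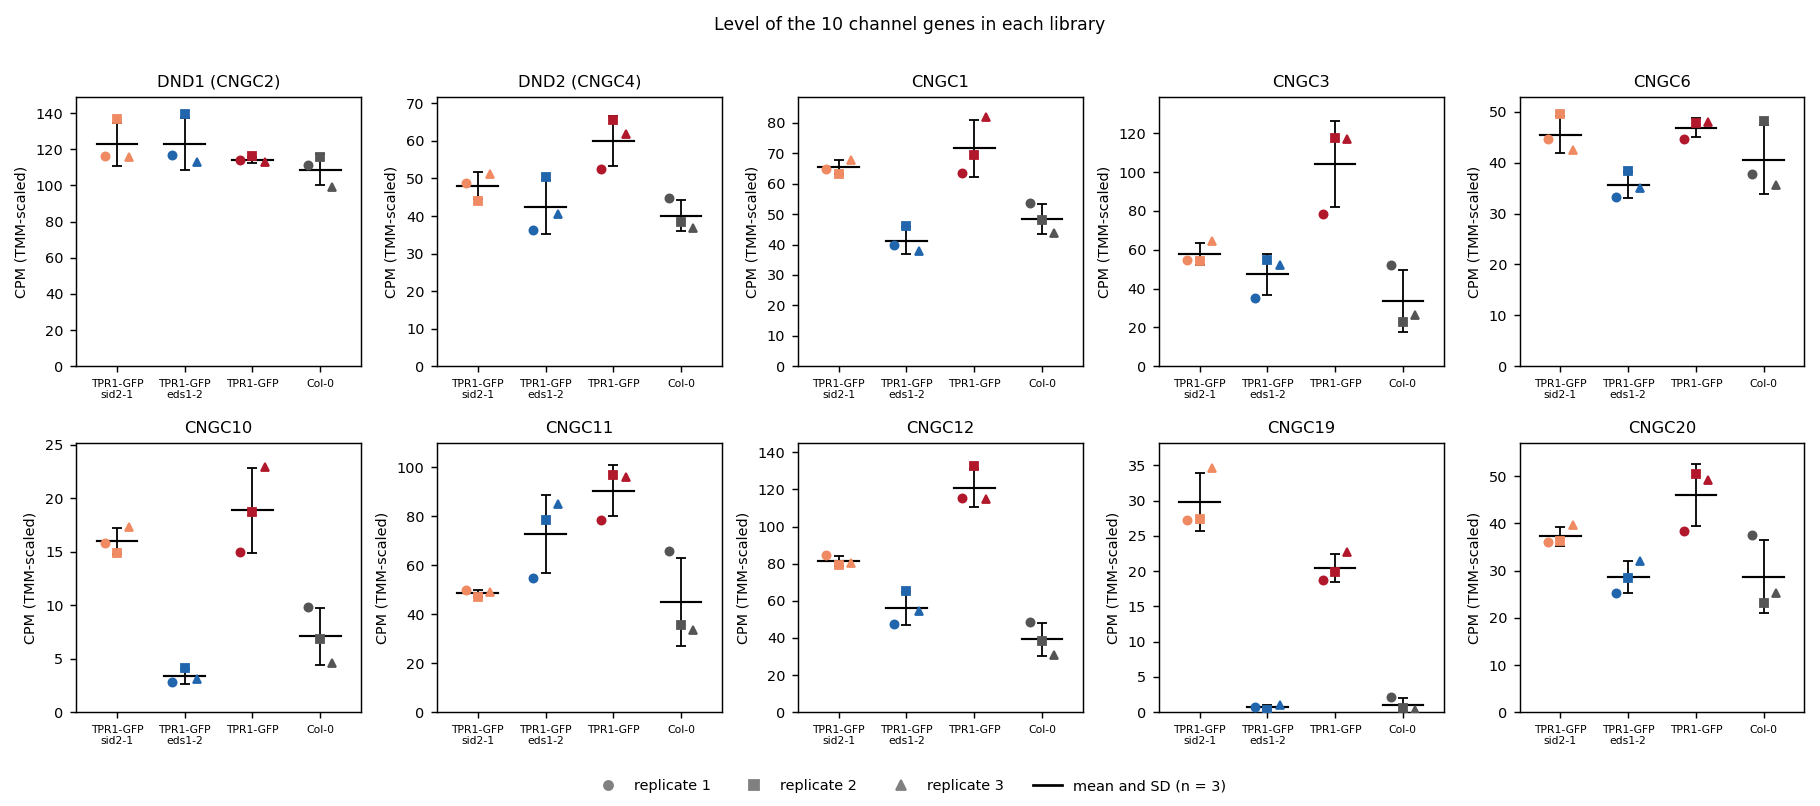
TMM-scaled CPM (vertical axis, from 0) of the 10 genes in the 3 libraries of each genotype, with marker shapes for replicate numbers and lines for the mean and SD. The genotypes overlap for *DND1*, while for *CNGC19* the sid2-1 double line (27.3 to 34.6 CPM) and TPR1-GFP (18.8 to 22.7 CPM) stand far above the eds1-2 double line and Col-0 (2.10 CPM at most).

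*CNGC19* and *CNGC20* are tandem neighbours on the plus strand of chromosome 3, at 6045002 to 6048529 and 6048814 to 6052675, with 284 bases between them. *CNGC19* takes part in calcium signals on herbivory and in basal defence, and both genes are needed for the cell death of plants that lack the receptor kinases BAK1 and SERK4. *CNGC19* had 27.3, 27.5 and 34.6 CPM in the sid2-1 double line and 0.7701, 0.356 and 1.001 CPM in the eds1-2 double line. It had 18.8, 19.9 and 22.7 CPM in TPR1-GFP libraries and 2.1002, 0.596 and 0.364 CPM in Col-0. The sid2-1 double line was highest and did not overlap TPR1-GFP, while the eds1-2 double line and Col-0 overlapped. Levels in those 2 genotypes rest on few reads: 16, 8 and 21 counts in the eds1-2 double line, and 42, 12 and 9 counts in Col-0.

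*CNGC19* rose 20.6-fold in TPR1-GFP against Col-0 (log2 change 4.36, SE 0.41, adjusted p = 1.55e-05), and without Col-0 replicate 1 the log2 change was 5.43. It fell in the eds1-2 double line against TPR1-GFP, with a log2 change of −4.85 (SE 0.43, adjusted p = 1.01e-05). The change in the sid2-1 double line against TPR1-GFP, 0.54 (SE 0.31, adjusted p = 0.235), was not called. The authors' deposited table, with its sign turned to this direction, gives a log2 change of 0.54 with an FDR of 0.0383, and a fit of these 6 libraries alone gave adjusted p = 0.0114.

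*CNGC20*, which had more reads, changed less. It had 36.02, 36.2 and 39.6 CPM in the sid2-1 double line and 25.3, 28.5 and 32.1 CPM in the eds1-2 double line. It had 38.4, 50.5 and 49.1 CPM in TPR1-GFP libraries and 37.5, 23.2 and 25.3 CPM in Col-0. All 3 TPR1-GFP libraries lay above those of Col-0, of which replicate 1 came within 1 CPM of the lowest TPR1-GFP library. *CNGC20* rose in TPR1-GFP against Col-0, with a log2 change of 0.68 (SE 0.17, adjusted p = 0.00525), and fell in the eds1-2 double line against TPR1-GFP, with a log2 change of −0.68 (SE 0.17, adjusted p = 0.00533). The sid2-1 double line against TPR1-GFP had a change of −0.30 (SE 0.17, adjusted p = 0.227). The ratio of *CNGC19* to *CNGC20* per kb averaged 0.799 ± 0.06601 in the sid2-1 double line, 0.0248 ± 0.0106 in the eds1-2 double line, 0.449 ± 0.04902 in TPR1-GFP and 0.0321 ± 0.0216 in Col-0 (SD, n = 3 each). The proteins are 76.6% identical, but only 1 stretch of 50 exon bases is shared between the genes. The 239 gene-free bases before *CNGC19*, from chr3:6044763-6045001 on the plus strand, are shown as those of the member with the largest change; no TTGAC or GTCAA occurs in them, so there are no capitals.
CNGC19: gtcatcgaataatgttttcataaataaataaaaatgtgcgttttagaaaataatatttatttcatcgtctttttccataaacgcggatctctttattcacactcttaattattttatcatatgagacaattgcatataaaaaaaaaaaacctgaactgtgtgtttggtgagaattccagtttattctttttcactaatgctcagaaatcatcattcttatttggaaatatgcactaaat

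*CNGC3*, *CNGC11* and *CNGC12* form a tandem row on the plus strand of chromosome 2, at 19057999 to 19061492, 19061688 to 19064937 and 19065536 to 19069569. Gaps of 195 and 598 bases separate them. *CNGC11* and *CNGC12* act in resistance to pathogens, and a deletion that fuses the pair into 1 chimeric gene, the *cpr22* mutation, switches defence on in plants without infection. *CNGC3* has been linked to the uptake of monovalent cations. Of the 50-base stretches in *CNGC11* exons, 26.3% also occur in *CNGC12* and 10% in *CNGC3*. Of those in *CNGC12* and *CNGC3* exons, 20.2% and 9.54% occur in *CNGC11*. Reads that lie wholly in such stretches fit more than 1 of these 3 genes. Whether the counting dropped or assigned such reads is not given in the sources used here. A further 5.55% of the *CNGC11* stretches occur in *CNGC12* outside its annotated exons, which makes 41.9% that also occur elsewhere in the genome, all of them within *CNGC3* or *CNGC12*. The *CNGC11* and *CNGC12* proteins are 83.3% identical, and those of *CNGC3* and *CNGC11* 69.2%.

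*CNGC3* had 54.7, 54.3 and 64.5 CPM in the sid2-1 double line and 34.9, 54.9 and 51.9 CPM in the eds1-2 double line. It had 78.6, 117 and 117 CPM in TPR1-GFP libraries and 51.95, 22.7 and 26.3 CPM in Col-0. TPR1-GFP lay above the other 3 genotypes in every library, and Col-0 replicate 1 stood at about the level of the double lines. *CNGC3* rose in TPR1-GFP against Col-0, with a log2 change of 1.63 (SE 0.29, adjusted p = 0.000768), and fell in the eds1-2 double line against TPR1-GFP, with a log2 change of −1.14 (SE 0.29, adjusted p = 0.00621). Its change in the sid2-1 double line against TPR1-GFP, −0.85 (SE 0.29, adjusted p = 0.0625), was not called, but it was called with an adjusted p of 0.0209 by DESeq2, 0.0469 without scaling beyond the library total and 0.00587 in a fit of the 6 libraries alone. Without TPR1-GFP replicate 1 it was called at −1.02 (adjusted p = 0.0415).

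*CNGC11* had 49.7, 46.99 and 49.1 CPM in the sid2-1 double line and 54.7, 78.3 and 84.8 CPM in the eds1-2 double line. It had 78.3, 96.8 and 95.8 CPM in TPR1-GFP libraries and 65.9, 35.6 and 33.6 CPM in Col-0. The sid2-1 libraries lay close together under all 3 of TPR1-GFP, whereas the eds1-2 libraries overlapped TPR1-GFP. *CNGC11* rose in TPR1-GFP against Col-0, with a log2 change of 1.01 (SE 0.24, adjusted p = 0.00389). It fell in the sid2-1 double line against TPR1-GFP, with a log2 change of −0.89 (SE 0.23, adjusted p = 0.0258), while the change in the eds1-2 double line was −0.31 (SE 0.23, adjusted p = 0.275) and was not called. Between the double lines, sid2-1 against eds1-2, the change was −0.58 (SE 0.23, adjusted p = 0.0755), with no call and no overlap between the groups, as for 49.7% of all genes there.

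*CNGC12* had 84.7, 79.4 and 80.5 CPM in the sid2-1 double line and 47.6, 65.5 and 54.6 CPM in the eds1-2 double line. It had 115, 133 and 115 CPM in TPR1-GFP libraries and 48.5, 38.3 and 30.8 CPM in Col-0. TPR1-GFP, the sid2-1 double line and the eds1-2 double line followed each other without overlap, and Col-0 replicate 1 lay just above the lowest eds1-2 library. *CNGC12* rose in TPR1-GFP against Col-0, with a log2 change of 1.63 (SE 0.16, adjusted p = 1.50e-05). It fell in both double lines against TPR1-GFP, with log2 changes of −0.57 (SE 0.15, adjusted p = 0.0276) for sid2-1 and −1.11 (SE 0.15, adjusted p = 0.000134) for eds1-2. Its exons overlap those of AT2G46455, on the opposite strand, by 137 bases, and the strand used in counting is not given in the sources used here.

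The balance within the row differed between genotypes. *CNGC12* over *CNGC11*, per kb, was 1.32, 1.304 and 1.26 in the sid2-1 double line, 0.671, 0.645 and 0.497 in the eds1-2 double line, 1.14, 1.06 and 0.923 in TPR1-GFP and 0.567, 0.829 and 0.708 in Col-0. The sid2-1 double line was highest, TPR1-GFP followed without overlap, and the eds1-2 double line and Col-0 overlapped. *CNGC3* over *CNGC11* averaged 1.12 ± 0.104 in the sid2-1 double line and 0.613 ± 0.0431 in the eds1-2 double line, against 1.08 ± 0.115 in TPR1-GFP and 0.693 ± 0.0814 in Col-0 (SD, n = 3 each). These ratios were not tested, nor was the part of shared reads in them.

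**Figure D3:**
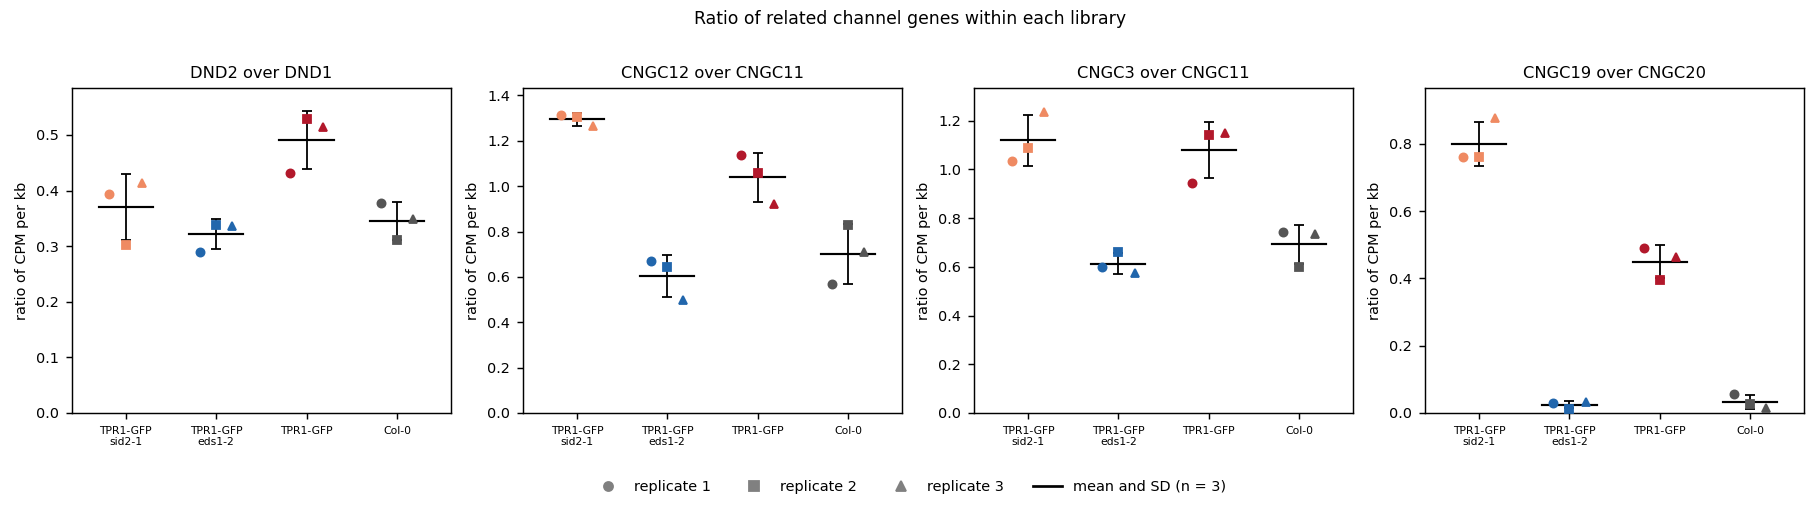
Ratios of CPM per kb within each library (vertical axes, from 0) for 4 pairs of related genes, by genotype, with the mean and SD. *DND2* over *DND1* is highest in TPR1-GFP (0.431 to 0.528), while *CNGC12* over *CNGC11* and *CNGC19* over *CNGC20* are highest in the sid2-1 double line.

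The upstream bases of the row are shown because the 3 genes stand side by side and all rose in TPR1-GFP against Col-0. *CNGC3* comes from chr2:19057749-19057998, *CNGC11* from chr2:19061493-19061687 (the 195 bases free of *CNGC3*) and *CNGC12* from chr2:19065286-19065535, all on the plus strand of TAIR10.1. Capitals again mark TTGAC and GTCAA.
CNGC3: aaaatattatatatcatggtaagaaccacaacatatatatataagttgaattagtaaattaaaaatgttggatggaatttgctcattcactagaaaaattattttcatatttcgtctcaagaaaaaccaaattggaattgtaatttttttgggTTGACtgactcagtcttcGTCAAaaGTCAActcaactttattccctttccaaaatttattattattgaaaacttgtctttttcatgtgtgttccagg
CNGC11: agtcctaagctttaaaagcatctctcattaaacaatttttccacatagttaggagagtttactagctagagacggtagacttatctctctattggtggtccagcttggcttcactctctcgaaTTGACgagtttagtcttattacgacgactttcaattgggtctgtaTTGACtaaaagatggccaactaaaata
CNGC12: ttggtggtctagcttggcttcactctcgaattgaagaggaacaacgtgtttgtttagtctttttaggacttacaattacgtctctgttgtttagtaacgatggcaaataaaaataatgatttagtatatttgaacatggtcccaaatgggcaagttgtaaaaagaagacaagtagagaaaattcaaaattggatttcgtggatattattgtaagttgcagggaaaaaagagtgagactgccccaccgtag
*CNGC3* has 3 matches, at 97, 79 and 72 bases before the start, *CNGC11* has 2, at 72 and 27 bases, and *CNGC12* has 0. Runs shared between members were sought in the upstream bases free of other genes, each read in the direction of its gene. *CNGC6* was left out, since another gene reaches its start. The longest shared run was 17 bases, agcttggcttcactctc, which starts 94 bases before *CNGC11* and 240 bases before *CNGC12*. Within 250 bases of the start, 5 of the 10 members held TTGAC or GTCAA (*DND1*, *CNGC1*, *CNGC3*, *CNGC10*, *CNGC11*), against 44.9% of 27443 promoters of that length. For TGACG or CGTCA, the core of the as-1 element, which can overlap TTGAC, it was 2 of 10 (*CNGC3*, *CNGC11*) against 18.6%, and both matches overlap a TTGAC match. For CGCGT or ACGCG, a core bound by calmodulin-binding CAMTA factors, it was 1 of 10 (*CNGC19*) against 6.87%.

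The other 3 genes stand outside the tandem rows, and 55.4% to 62.8% of aligned residues are identical between each pair of their proteins. *CNGC1* has been tied to calcium uptake by roots. It had 64.95, 63.3 and 67.9 CPM in the sid2-1 double line and 39.7, 46.2 and 37.8 CPM in the eds1-2 double line. It had 63.5, 69.6 and 81.9 CPM in TPR1-GFP libraries and 53.6, 47.9 and 43.7 CPM in Col-0. TPR1-GFP and the sid2-1 double line overlapped and lay above all libraries of the other genotypes. *CNGC1* rose in TPR1-GFP against Col-0, with a log2 change of 0.57 (SE 0.11, adjusted p = 0.00152), fell in the eds1-2 double line against TPR1-GFP, with a log2 change of −0.80 (SE 0.12, adjusted p = 0.000171), and had a change of −0.13 (SE 0.11, adjusted p = 0.445) in the sid2-1 double line. Its exons overlap a gene on the opposite strand by 96 bases.

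*CNGC6*, which carries calcium currents evoked by heat, had small changes. It had 44.7, 49.5 and 42.5 CPM in the sid2-1 double line and 33.4, 38.4 and 35.1 CPM in the eds1-2 double line. It had 44.7, 47.9 and 48.1 CPM in TPR1-GFP libraries and 37.9, 48.3 and 35.6 CPM in Col-0. Col-0 overlapped all 3 other genotypes, with replicate 2 as its highest library, while the eds1-2 double line lay under all libraries of TPR1-GFP and of the sid2-1 double line. The change in TPR1-GFP against Col-0 was 0.21 (SE 0.11, adjusted p = 0.141) and was not called, but it was 0.35 (adjusted p = 0.0124) without Col-0 replicate 2. *CNGC6* fell in the eds1-2 double line against TPR1-GFP, with a log2 change of −0.40 (SE 0.11, adjusted p = 0.0121), a call that was lost with upper-quartile scaling (adjusted p = 0.0545). The sid2-1 double line against TPR1-GFP gave −0.04 (SE 0.11, adjusted p = 0.824). *CNGC6* overlaps AT2G23985, on the opposite strand, by 621 bases, of which 22 lie in exons of both. It overlaps AT2G23987, on the same strand, by 392 bases, with 0 in exons of both.

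*CNGC10*, a subunit tied to potassium and calcium transport in growing plants, showed the second largest drop in the eds1-2 double line. It had 15.8, 14.9 and 17.3 CPM in the sid2-1 double line and 2.84, 4.098 and 3.098 CPM in the eds1-2 double line. It had 14.99, 18.7 and 22.9 CPM in TPR1-GFP libraries and 9.85, 6.81 and 4.57 CPM in Col-0. The eds1-2 double line lay under every other library, Col-0 included. *CNGC10* rose in TPR1-GFP against Col-0, with a log2 change of 1.42 (SE 0.24, adjusted p = 0.000509), and fell in the eds1-2 double line against TPR1-GFP, with a log2 change of −2.49 (SE 0.26, adjusted p = 2.31e-05). The sid2-1 double line against TPR1-GFP gave −0.24 (SE 0.23, adjusted p = 0.502).

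The double lines were then set against each other. In the sid2-1 against the eds1-2 double line 5 of the 10 genes were called higher and 0 lower, where 34.4% of all genes were called and 19.5% were called higher. Their log2 changes were *CNGC19* at 5.40 (SE 0.43, adjusted p = 7.07e-06), *CNGC10* at 2.25 (SE 0.26, adjusted p = 7.07e-05), *CNGC1* at 0.67 (SE 0.12, adjusted p = 0.00112), *CNGC12* at 0.54 (SE 0.15, adjusted p = 0.0175) and *CNGC6* at 0.35 (SE 0.11, adjusted p = 0.0322). *CNGC19* stood 42.1-fold higher in the sid2-1 double line. The call of *CNGC12* was lost without sid2-1 replicate 1 or eds1-2 replicate 1 or 3 (adjusted p of 0.0587 to 0.0737), and that of *CNGC6* without sid2-1 replicate 1 or 2 or eds1-2 replicate 1 or 3 (0.0721 to 0.12). With upper-quartile scaling *CNGC6* was not called either, at 0.26 (adjusted p = 0.0808). *CNGC11*, without a call as reported, was called lower with upper-quartile scaling (adjusted p = 0.0382), by DESeq2 (0.0391) and in a fit of the 6 libraries alone (0.0197), and at −0.75 without eds1-2 replicate 1 (0.0418). *CNGC20* was called higher in the fit of the 6 libraries alone (adjusted p = 0.0234). *DND1* had a change of −0.0039 (SE 0.11, adjusted p = 0.981) and *DND2* one of 0.18 (SE 0.13, adjusted p = 0.309), while *CNGC3* had 0.29 (SE 0.29, adjusted p = 0.454) and *CNGC20* 0.38 (SE 0.17, adjusted p = 0.102).

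Against Col-0, the sid2-1 double line had 5 of the 10 genes called higher and 0 lower, where 42.1% of all genes were called and 22.1% were called higher. *CNGC19* stood 30.1-fold higher (log2 change 4.91, SE 0.41, adjusted p = 1.33e-05), and the other log2 changes were *CNGC10* at 1.19 (SE 0.24, adjusted p = 0.00278), *CNGC12* at 1.06 (SE 0.16, adjusted p = 0.000349), *CNGC1* at 0.44 (SE 0.11, adjusted p = 0.0106) and *CNGC3* at 0.78 (SE 0.29, adjusted p = 0.0477). Deviations from the genotype mean correlated between same-numbered libraries of these 2 genotypes (0.172, 0.22 and 0.309), though the labels tie no number to an experiment. With the replicate number as a block *CNGC3* was not called (adjusted p = 0.0838), which left 4 genes. Calls over all genes were 7716 with the block, against 7940. Nor was *CNGC3* called with upper-quartile scaling (0.0521) or in a fit of the 6 libraries alone (0.0768). *CNGC3* was also lost without any 1 of Col-0 replicates 2 and 3 and the 3 sid2-1 libraries (adjusted p of 0.0786 to 0.156). Without Col-0 replicate 1, 7 of the 10 genes were called, and calls over all genes were 7546 in place of 7940. *CNGC3* was among the 7 at 1.24 (adjusted p = 0.00148). *CNGC11* at 0.49 (adjusted p = 0.0367) and *CNGC20* at 0.62 (adjusted p = 0.00495) were added, and *CNGC19* was 5.97. Without Col-0 replicate 2 *CNGC6* was called at 0.31 (adjusted p = 0.0291). Without scaling beyond the library total, where the median of all genes was 0.17, *DND1*, *DND2*, *CNGC6* and *CNGC20* were called higher too (adjusted p of 0.0212 to 0.0355). As reported on all libraries, *CNGC6* had 0.17 (SE 0.11, adjusted p = 0.259), *CNGC11* 0.11 (SE 0.23, adjusted p = 0.726), *CNGC20* 0.38 (SE 0.17, adjusted p = 0.0914), *DND1* 0.18 (SE 0.11, adjusted p = 0.201) and *DND2* 0.26 (SE 0.13, adjusted p = 0.128), none of them called.

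Set against Col-0, the eds1-2 double line had *CNGC10* called lower at a log2 change of −1.07 (SE 0.27, adjusted p = 0.0175) and *CNGC12* called higher at 0.51 (SE 0.16, adjusted p = 0.0398), where 17.5% of all genes were called, 9.48% higher and 8.02% lower. The libraries of *CNGC12* overlapped between the 2 genotypes. The call of *CNGC10* was lost without eds1-2 replicate 1 or 3 (adjusted p of 0.0567 and 0.0622) and that of *CNGC12* without Col-0 replicate 2 or 3 or eds1-2 replicate 2 or 3 (0.0856 to 0.143). A fit of the 6 libraries alone called 0 of the 10, and 1804 of all genes in place of 3303. Without Col-0 replicate 1 *CNGC3* was called at 0.95 (adjusted p = 0.0137) and *CNGC11* at 1.07 (adjusted p = 0.00167). *CNGC11* was also called higher without eds1-2 replicate 1, at 0.86 (adjusted p = 0.0352), and on all libraries by DESeq2 (0.0208) and with upper-quartile scaling (0.0466). *DND1* had 0.18 (SE 0.11, adjusted p = 0.269) and *DND2* 0.08 (SE 0.13, adjusted p = 0.701), and *CNGC19* had −0.49 (SE 0.56, adjusted p = 0.584). The other log2 changes were −0.23 (SE 0.12, adjusted p = 0.193) for *CNGC1*, 0.49 (SE 0.29, adjusted p = 0.266) for *CNGC3*, −0.19 (SE 0.11, adjusted p = 0.286) for *CNGC6*, 0.69 (SE 0.24, adjusted p = 0.065) for *CNGC11* and −0.00073 (SE 0.17, adjusted p = 0.998) for *CNGC20*.

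Col-0 replicate 1 was the highest Col-0 library for *CNGC3*, *CNGC10*, *CNGC11*, *CNGC12*, *CNGC19* and *CNGC20*, and for *DND2* and *CNGC1* as well. *ICS1* moved with it, at 49.9, 26.6 and 10.3 CPM in Col-0 replicates 1, 2 and 3, and so did *EDS1A*, at 60.8, 31.95 and 29.6 CPM. Their part in the channel results was not tested. Without that library, all 8 members called higher in TPR1-GFP against Col-0 were called still, with *CNGC3* at 2.09, *CNGC11* at 1.38 and *CNGC19* at 5.43.

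Levels were compared between genes as CPM per kb of exon. Those of *CNGC3*, *CNGC11* and *CNGC12* carry the limit of shared stretches given above. *DND1* was the first of the 10 in all 4 genotypes and did not overlap the next gene in any, with 46.1 ± 4.47 in the sid2-1 double line, 46.3 ± 5.41 in the eds1-2 double line, 42.95 ± 0.622 in TPR1-GFP and 40.9 ± 3.27 in Col-0 (SD, n = 3 each). In TPR1-GFP *CNGC3* (37.1), *CNGC12* (35.2) and *CNGC11* (34.1) came next and overlapped each other, and *CNGC1* (27.003) overlapped *CNGC11*. *DND2* (21.1) stood apart, *CNGC20* (15.9) overlapped *CNGC6* (14.98), and *CNGC19* (7.08) overlapped *CNGC10* (7.02). In the sid2-1 double line *CNGC1* (24.6) and *CNGC12* (23.7) followed *DND1* and overlapped. *CNGC3* (20.5) stood apart, *CNGC11* (18.4), *DND2* (16.9), *CNGC6* (14.5) and *CNGC20* (12.9) each overlapped the next, and *CNGC19* (10.3) and *CNGC10* (5.96) were last.

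Among the eds1-2 libraries *CNGC11* (27.4) was second without overlap. *CNGC3* (16.8), *CNGC12* (16.3), *CNGC1* (15.5) and *DND2* (14.9) formed a run of overlapping neighbours, and *CNGC6* (11.4) and *CNGC20* (9.88) another. *CNGC10* (1.25) and *CNGC19* (0.245) were last. In Col-0 the 7 genes from *CNGC1* (18.2) over *CNGC11* (17.002), *DND2* (14.1), *CNGC6* (12.97), *CNGC3* (11.95) and *CNGC12* (11.4) to *CNGC20* (9.89) each overlapped their neighbour. *CNGC10* (2.63) and *CNGC19* (0.353) were again last. Summed over the 10 genes, the level was 194 ± 3.75 CPM per kb in the sid2-1 double line, 159.9 ± 20.1 in the eds1-2 double line, 242 ± 22.8 in TPR1-GFP and 139 ± 23 in Col-0 (SD, n = 3 each).

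**Figure D4:**
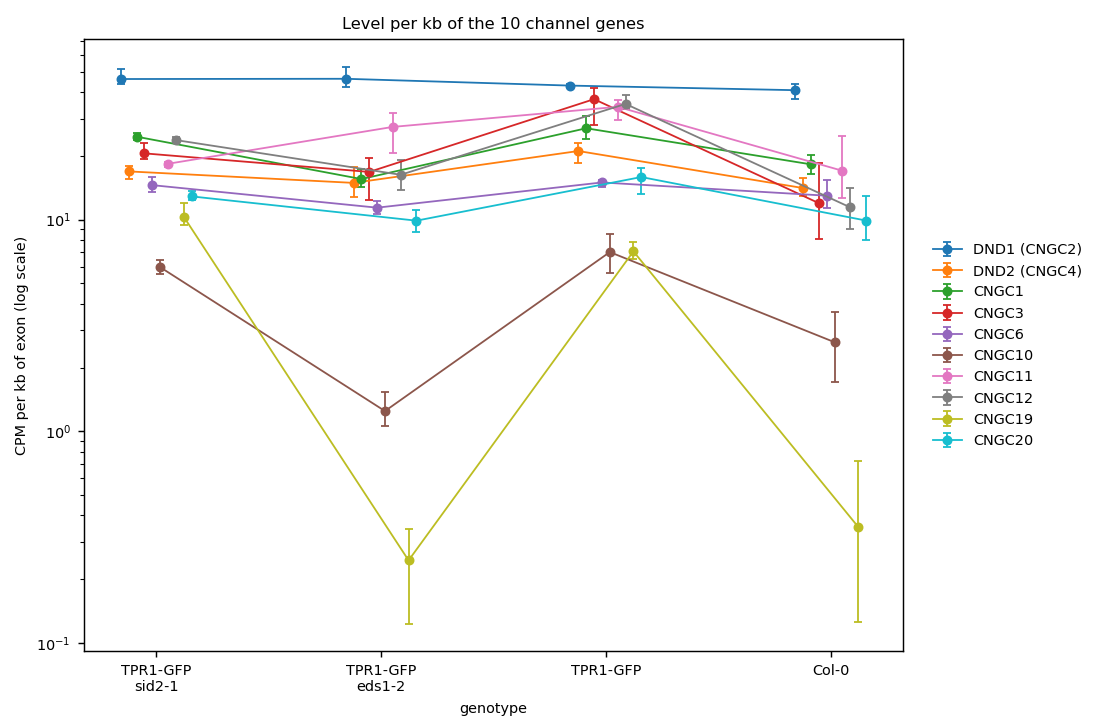
CPM per kb of exon (vertical axis, log scale) of the 10 genes by genotype, with the mean and a bar from the lowest to the highest of 3 libraries; lines only join the points of a gene. *DND1* lies on top throughout, at 40.9 to 46.3, and *CNGC19* spans 0.245 in the eds1-2 double line to 10.3 in the sid2-1 double line.

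Likeness between genes was measured as the root mean square difference of log2 CPM, centred per gene, over the 12 libraries. The closest of all genes to *DND1* were *PEX14* (0.0766), AT3G51390 (0.0784) and *PRR7* (0.0819). *DND1* itself had a root mean square of 0.124 around its mean. The closest to *DND2* were AT3G23600 (0.0722), *SYNC3* (0.0787) and AT4G34310 (0.0838). Among the members, *CNGC20* was nearest to *DND2* at 0.166 (rank 703 of all genes), and *CNGC6* was nearest to *DND1* at 0.200 (rank 2959). *CNGC12* was nearest to *CNGC3* at 0.258, and it ranked 31 among all genes. *CNGC19* was the farthest member from each of the other 9.

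Of the 10 further genes of the family, 7 were tested. *CNGC7*, *CNGC8* and *CNGC16* were absent from the 18884 genes, among which the lowest sum over all libraries was 101 counts. All 7 were called in TPR1-GFP against Col-0, 4 higher and 3 lower, where 53.9% of all genes were called and 27.5% were called higher. Higher, by their log2 changes, were *CNGC13* at 2.15 (SE 0.37, adjusted p = 0.000651), *CNGC9* at 0.95 (SE 0.11, adjusted p = 4.89e-05), *CNGC17*, which acts with the phytosulfokine receptor, at 0.38 (SE 0.10, adjusted p = 0.00894) and *CNGC5* at 0.25 (SE 0.094, adjusted p = 0.0387). Lower on the same scale were *CNGC14*, a channel of root hairs and root bending, at −2.25 (SE 0.65, adjusted p = 0.0116), *CNGC18*, a pollen tube channel, at −1.05 (SE 0.39, adjusted p = 0.0379) and *CNGC15*, a channel of the nuclear envelope, at −0.65 (SE 0.19, adjusted p = 0.0117). *CNGC14* and *CNGC18* rest on few reads, with 18, 3 and 3 counts for *CNGC14* in TPR1-GFP against 18, 25 and 46 in Col-0, and 5, 9 and 9 for *CNGC18* against 10, 9 and 17.

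Calls of 4 of these genes in TPR1-GFP against Col-0 were lost without single libraries. For *CNGC5* they were Col-0 replicate 2 or 3 and TPR1-GFP replicate 1 or 2 (adjusted p of 0.0642 to 0.149), and for *CNGC18* Col-0 replicate 1 or 3 and TPR1-GFP replicate 1 or 2 (0.0555 to 0.153). For *CNGC14* it was TPR1-GFP replicate 2 (0.0501), and for *CNGC15* Col-0 replicate 3 (0.0539). Without TPR1-GFP replicate 1 the change of *CNGC14* was −3.68. The call of *CNGC5* was also lost with upper-quartile scaling (adjusted p = 0.121) and in a fit of the 6 libraries alone (0.0848). That of *CNGC18* was lost by DESeq2 (0.0682) and without scaling beyond the library total (0.0923), where that of *CNGC15* was lost too (0.088).

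*CNGC13*, *CNGC9* and *CNGC17* fell in the eds1-2 double line against TPR1-GFP, with log2 changes of −2.86 (SE 0.39, adjusted p = 0.000145), −1.17 (SE 0.11, adjusted p = 1.44e-05) and −0.44 (SE 0.10, adjusted p = 0.00398). *CNGC14*, *CNGC18* and *CNGC15* rose, with log2 changes of 2.21 (SE 0.65, adjusted p = 0.0136), 1.69 (SE 0.37, adjusted p = 0.00253) and 0.83 (SE 0.19, adjusted p = 0.00291), and *CNGC5* had 0.0045 (SE 0.093, adjusted p = 0.971). The call of *CNGC14* was lost without TPR1-GFP replicate 2 or 3 (adjusted p of 0.0567 and 0.0523), and its change was 3.63 without TPR1-GFP replicate 1. *CNGC9* fell in the sid2-1 double line against TPR1-GFP, with a log2 change of −0.83 (SE 0.11, adjusted p = 0.00125) and *CNGC14* rose, with one of 2.23 (SE 0.64, adjusted p = 0.0351). The call of *CNGC14* was lost without TPR1-GFP replicate 2 or 3 or sid2-1 replicate 2 or 3 (0.0841 to 0.133), and without TPR1-GFP replicate 1 the change was 3.65.

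Other genes of calcium transport were counted from lists. In TPR1-GFP against Col-0, 53.9% of all genes tested were called and 27.5% were called higher. Of 9 other calcium channel genes, 5 were called higher and 3 lower in TPR1-GFP against Col-0, with log2 changes of the glutamate receptor-like genes *GLR2.8* at 3.73 (SE 0.29, adjusted p = 4.53e-06), *GLR2.9* at 2.36 (SE 0.60, adjusted p = 0.00578) and *GLR3.6* at −1.19 (SE 0.23, adjusted p = 0.00111). *GLR2.9* rests on few reads, with means of 1.34 CPM in TPR1-GFP and 0.251 CPM in Col-0. Of 6 pumps and exchangers, which move calcium out of the cytosol, 4 were higher and 1 lower, with *CAX3* at 6.18 (SE 0.90, adjusted p = 0.000211), *ACA11* at 1.45 (SE 0.16, adjusted p = 2.74e-05) and *ACA10* at 1.33 (SE 0.17, adjusted p = 8.70e-05). *CAX3*, a vacuolar exchanger gene, averaged 259.7 ± 76.5 CPM in TPR1-GFP and 3.68 ± 3.69 CPM in Col-0 (SD, n = 3 each), a 72.3-fold difference, and without Col-0 replicate 1 its log2 change was 7.35.

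Of the 7 calmodulin genes, whose products bind the channels, 4 were called higher and 1 lower in TPR1-GFP against Col-0, with *CAM3* at 0.73 (SE 0.12, adjusted p = 0.000321), *CAM1* at 0.64 (SE 0.10, adjusted p = 0.000286) and *CAM2* at 0.48 (SE 0.14, adjusted p = 0.0143). The call of *CAM2* was lost without Col-0 replicate 2 (adjusted p = 0.0578) or TPR1-GFP replicate 3 (0.0612). The count of 5 calmodulins called was 3 without Col-0 replicate 3 or TPR1-GFP replicate 2 and 2 without TPR1-GFP replicate 3. Calls over all genes fell there too, from 10171 to 8437, 8248 and 8477 in that order. For this list and the next, the shares over all genes were 53.9% called and 27.5% called higher. Of 8 channel regulators and calcium readers, 6 were higher and 1 lower. They included *CBP60G*, a calmodulin-binding activator of salicylic acid synthesis, at 2.98 (SE 0.27, adjusted p = 1.27e-05), *BIK1*, a kinase that phosphorylates DND2, at 1.38 (SE 0.14, adjusted p = 2.04e-05) and *SERK4* at 1.27 (SE 0.18, adjusted p = 0.000172). Calmodulin genes are close paralogs, and whether reads can be assigned to the wrong one was not checked.

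In the eds1-2 double line against TPR1-GFP, the counts higher and lower were 3 and 4 of the 9 other channels, 1 and 3 of the 6 pumps and exchangers, 0 and 5 of the 7 calmodulins, and 0 and 8 of the 8 regulators and readers. There 52.9% of all genes were called and 27.7% were called lower. In the sid2-1 double line against TPR1-GFP the counts were 2 and 3 of the other channels, 1 and 1 of the pumps and exchangers, 0 and 2 of the calmodulins, and 0 and 1 of the regulators and readers. Of all genes, 16.8% were called in that comparison and 7.14% were called lower. Counts in the sid2-1 double line depended on single libraries, and so did calls over all genes. Without TPR1-GFP replicate 2 or 3 or sid2-1 replicate 1 or 2 the other channels had 1 or 2 calls. The regulators and readers had 0 without any 1 of TPR1-GFP replicates 2 and 3 and the 3 sid2-1 libraries, where calls over all genes were 1172 to 2027 in place of 3179. Leaving out any 1 of those 5 libraries also left 1 of the 2 calls among the pumps and exchangers, as did DESeq2, while a fit of the 6 libraries alone gave 4. Without scaling beyond the library total 4 calmodulins were called in place of 2.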

How the data were processed

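Polyadenylated leaf RNA of 12 libraries in 4 groups was sequenced. The deposited table holds raw counts per gene, log2 CPM per library, and for 3 comparisons the fold, log2 change and p-values adjusted as FDR. The authors' tools and build, per the submitters' processing notes, were TopHat2, HTSeq, limma and TAIR10, with no versions or roles; strand and read length are not given in the sources used here. The members and all gene lists were chosen with earlier results of these data known.

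Counts were tested with edgeR 4.0.16 in R 4.3.3 (quasi-likelihood, TMM, robust, filterByExpr, which removed 7 genes) in 1 fit of all 12 libraries by genotype. Benjamini-Hochberg adjustment covered all 18877 genes and calls needed an adjusted p under 0.05. Alternatives were DESeq2 1.42.0, other scalings, no filter, a replicate block, 6 libraries alone and leaving out each library. A prior count of 2 was used for log2 CPM in the likeness measure. Exon lengths, upstream bases, overlaps and protein identities were computed from RefSeq TAIR10.1, to which 18777 loci matched; the table holds no coordinates. The design text names 3 independent experiments without tying them to replicate numbers. The pairing check found correlations of deviations over 0.1 for all 3 pairs of same-numbered libraries only between the sid2-1 double line and Col-0 (0.172, 0.22 and 0.309). In each list the 3 genes with the largest called changes in TPR1-GFP against Col-0 were named. Code was tested on simulated data.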

Additional observations from a re-analysis of the deposited data

How the results depend on the processing

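The count of members called changed under several settings. In the sid2-1 double line against TPR1-GFP it was 4 with the 6 libraries of the comparison alone, and 3 without scaling beyond the library total, by DESeq2 and on the authors' deposited values (2 as reported). Calls over all genes there were 3825, 3707, 4062 and 3509 in that order (3179 as reported). In the eds1-2 double line against Col-0 the count of members was 0 with the 6 libraries alone, and 3 with upper-quartile scaling and by DESeq2 (2). All-gene calls there were 1804, 3247 and 3904 (3303). In the sid2-1 double line against Col-0 the count of members was 9 without scaling, and 4 with upper-quartile scaling and with the 6 libraries alone (5). All-gene calls there were 8134, 8208 and 7116 (7940). In the sid2-1 against the eds1-2 double line the count of members was 7 with the 6 libraries alone and 6 by DESeq2 (5). All-gene calls there were 6622 and 7071 (6500). The count was 10 members without scaling in TPR1-GFP against Col-0 (8), where the median of all genes was 0.26 and 11447 were called (10171). With upper-quartile scaling it was 7 members in the eds1-2 double line against TPR1-GFP (8), where 9752 of all genes were called (9990). Leaving out 1 library at a time gave 8 to 9 members in TPR1-GFP against Col-0, with 8248 to 10203 of all genes called. In the same form, it gave 0 to 3 (1172 to 3643) in the sid2-1 double line against TPR1-GFP. The eds1-2 double line against TPR1-GFP had 8 to 8 (8123 to 10017), and the sid2-1 against the eds1-2 double line 3 to 5 (4556 to 6845). Against Col-0, the sid2-1 double line had 4 to 7 (5685 to 7546) and the eds1-2 double line 0 to 4 (2103 to 3150). The replicate block gave 4 in the sid2-1 double line against Col-0 and changed no other count of members called, but it ended the call of *CNGC14* (adjusted p = 0.0503) and left 1 of 2 calls among the pumps and exchangers in the sid2-1 double line against TPR1-GFP; same-numbered libraries correlated over 0.1 in 8 of 18 pairs, and 7 of 12 libraries correlated best with their own number. The authors' deposited table was not an alternative for the 3 comparisons it does not cover.

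The share of all calls that were higher moved without scaling to 72.9% from 51.0% in TPR1-GFP against Col-0, to 38.1% from 57.6% in the sid2-1 double line against TPR1-GFP, to 32.6% from 47.6% in the eds1-2 double line against TPR1-GFP, to 70.0% from 56.7% in the sid2-1 against the eds1-2 double line, to 76.5% from 52.6% in the sid2-1 double line against Col-0 and to 70.8% from 54.2% in the eds1-2 double line against Col-0. With upper-quartile scaling it was 59.7% in the eds1-2 double line against TPR1-GFP and 43.2% in the sid2-1 against the eds1-2 double line. With the 6 libraries alone 1804 genes were called in the eds1-2 double line against Col-0, against 3303.

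24 values changed sign, none of them called. *DND1* was −0.0041 (upper-quartile) in TPR1-GFP against Col-0, −0.060 (no scaling) in the eds1-2 double line against TPR1-GFP and 0.084 (no scaling) in the sid2-1 against the eds1-2 double line, where leaving out 1 library gave −0.087 to 0.096. *CNGC5* in the eds1-2 double line against TPR1-GFP was −0.16 (no scaling), −0.0094 in the authors' deposited table and −0.057 to 0.050 with 1 library left out. *CNGC20* in the eds1-2 double line against Col-0 was 0.021 (DESeq2 size factors), 0.085 (no scaling), 0.050 (upper-quartile), 0.021 (DESeq2), 0.031 (6 libraries alone) and −0.13 to 0.24 with 1 library left out. *CNGC17* in the sid2-1 double line against TPR1-GFP was −0.013 (no scaling). With 1 library left out, *CNGC6* in the sid2-1 double line against TPR1-GFP was −0.11 to 0.0062, *CNGC11* in the sid2-1 double line against Col-0 −0.063 to 0.49, and *DND2* and *CNGC19* in the eds1-2 double line against Col-0 −0.060 to 0.18 and −0.93 to 0.58. The cause was not tested. Of the single-gene values under all alternatives, 1161 kept direction and call, 59 lost a call and 26 gained one. Counts of list genes called moved by over 1.5 times in 21 cases and by less in 147, and the summed level of the members moved by more than its SD in 2 cases and by less in 22. Few counts per library, as for *CNGC14*, *CNGC18* and *GLR2.9* and for *CNGC19* in the eds1-2 double line and Col-0, limit the precision of those values.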
